A study of Mus musculus with 8 samples.

Results

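The genes described here belong to natriuretic peptide and cyclic GMP signalling, part of which lets granulosa cells hold the oocyte in meiotic arrest. The gene of the channel protein that couples these cells is included. They were chosen by symbol as the 7 genes Nppc, Npr2, Npr3, Prkg1, Prkg2, Pde5a and Gja1, out of 51886 symbols in the deposited expression table, and all 7 were found there. The samples were peri-ovulatory granulosa cells of mice of a knockout line for PGR-A, an isoform of the progesterone receptor. There were 4 knockout (PGR-A KO) and 4 wild-type (WT) libraries labelled with that line. All mice were 21 to 27 days old, and all were given 5 IU eCG, 5 IU hCG 46 h later, and killed 8 h after hCG, so both groups had received the ovulatory stimulus. Each library pooled cells of 2 to 3 mice. The labels name no allele, Cre driver or clone, and no samples without hCG were analysed here, so changes with hCG itself cannot be read from these values.

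C-type natriuretic peptide (CNP), encoded by Nppc, is made by mural granulosa cells and binds the guanylyl cyclase receptor NPR2, most abundant on cumulus cells. The cyclic GMP formed there passes through gap junctions into the oocyte, where it inhibits the phosphodiesterase PDE3A and so keeps cyclic AMP high and meiosis arrested. After the surge of luteinizing hormone, which hCG imitates, CNP and NPR2 activity fall, gap junctions between the somatic cells close, and meiosis resumes. The progesterone receptor is induced in mural granulosa cells at the same time, and Prkg2, a cyclic GMP-dependent kinase gene, is among the genes known to depend on it there.

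The start regions of Nppc and Gja1 are printed because these genes were high and low in nearly the same libraries. Both come from RefSeq on GRCm38.p6, the build also called mm10, run from 250 bases before to 50 bases after the annotated transcription start, and are written in the direction of the gene. Capitals mark matches, on either strand, to the motifs searched: the cyclic AMP response element half-site TGACG (reverse CGTCA), the AP-1 element TGANTCA, the GC box GGGCGG (reverse CCGCCC) and the progesterone receptor half-site TGTTCT (reverse AGAACA). No searched motifs overlap in these windows.
Nppc, chr1:86670524-86670823, minus strand: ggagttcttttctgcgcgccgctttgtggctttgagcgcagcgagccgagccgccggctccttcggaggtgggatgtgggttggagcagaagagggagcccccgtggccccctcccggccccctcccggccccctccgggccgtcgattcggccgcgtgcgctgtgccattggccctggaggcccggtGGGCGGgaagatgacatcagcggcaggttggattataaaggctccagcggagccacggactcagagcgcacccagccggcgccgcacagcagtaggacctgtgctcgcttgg
Gja1, chr10:56377050-56377349, plus strand: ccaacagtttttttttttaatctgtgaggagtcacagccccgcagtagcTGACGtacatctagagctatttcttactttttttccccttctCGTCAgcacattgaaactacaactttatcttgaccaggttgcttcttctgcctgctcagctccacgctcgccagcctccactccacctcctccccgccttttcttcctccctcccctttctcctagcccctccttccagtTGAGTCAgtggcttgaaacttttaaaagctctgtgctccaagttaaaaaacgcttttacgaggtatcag

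The Nppc window held a single match, a GC box 62 bases before the start, and 69.3% of its bases were G or C. The Gja1 window was poorer in G and C, at 47.7%, and held TGACG 201 bases before the start, CGTCA 159 bases before it and the AP-1 letters TGAGTCA 19 bases before it. Across 32851 promoter windows of this length, the median content of G and C was 52.7%. Of these windows, 20.8% held the cyclic AMP half-site, 7.81% the AP-1 element, 35.7% the GC box and 19.0% the progesterone receptor half-site. The 2 windows share no searched motif. A match here is a run of letters and not evidence of binding. RefSeq windows were at hand for 6 of the 7 genes.

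The unit throughout is TPM, a relative transcript abundance corrected for transcript length, so levels can be set side by side between genes of a library. Read depth cannot be recovered from TPM and is unknown here, and the columns summed to 994519 to 997022 TPM. Libraries correlated at 0.970 to 0.991 across genes on the log2 scale, and no libraries were identical. Granulosa markers were abundant in both groups, Inha, which encodes the inhibin alpha subunit, being highest at 3552 ± 515 TPM in the 4 PGR-A KO libraries and 4063 ± 549 TPM in the 4 WT libraries (mean ± SD, n = 4 each). Summed levels of 8 oocyte markers ran from 538 to 985 TPM in PGR-A KO and from 400 to 758 TPM in WT, with Gdf9 the highest. No listed marker was at 0 in every library. Summed markers of other cell types were low against granulosa markers (4442 to 7256 TPM). They were 16.4 to 45.5 TPM for endothelial cells (led by Cdh5), 87.4 to 251 TPM for theca (Aldh1a1), 88.8 to 127 TPM for stromal fibroblasts (Col3a1), 52.4 to 112 TPM for macrophages (Lyz2) and 80.5 to 115 TPM for surface epithelium (Krt8). Pgr, the targeted gene, stood at 3.21, 3.52, 2.01 and 3.08 TPM in PGR-A KO and at 1.56, 0.878, 1.41 and 0.756 TPM in WT. The groups did not overlap, and WT replicate 1 and PGR-A KO replicate 3 each lay with their own label (log2 change 0.88, SE 0.18, limma adjusted p = 0.445). These values sum all Pgr transcripts and cannot show the loss of PGR-A itself.

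The libraries did not divide cleanly by genotype. The summed level of 10 ovulatory response genes, led by Star, which encodes the cholesterol transport protein of steroid synthesis, was 2528, 2096, 1072 and 2056 TPM in PGR-A KO replicates 1 to 4 and 2542, 1628, 1259 and 1161 TPM in WT replicates 1 to 4. PGR-A KO replicate 3 was therefore the lowest of all 8 libraries and nearest to WT replicate 4. WT replicate 1 was the highest of all 8 and nearest to PGR-A KO replicate 1. The first principal component, with 34.9% of the variance, ordered the libraries in a like way. The second, with 20.5%, set WT replicate 2 apart. Results below are given with all 8 libraries and, where they differ, without these.

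Over the whole table, 14472 genes that reached 1 TPM in 4 or more libraries were tested with limma on log2(TPM + 1). Of the 7 genes, 6 passed this filter, and Npr3 did not. None of the 6 differed between genotypes after Benjamini-Hochberg adjustment over all genes, where 0.0138% of all genes tested (2 genes) were called. At an unadjusted limma p under 0.05 there was 1 of 6, Nppc, lower in PGR-A KO, against 6.31% of all genes in either direction, 5.33% lower and 0.974% higher. That background held 141 higher and 772 lower genes, and scaling moved this split, TMM giving 319 and 563 and quantile normalization 385 and 525. The groups overlapped in each of the 7 genes, while they did not overlap in 3.42% of all genes tested (2.82% lower and 0.601% higher in PGR-A KO). Means were lower in PGR-A KO for 4 of the 6 and higher for 2, beside 57.4% lower over all genes. The median log2 change over the 6 genes was -0.15, beside -0.023 over all genes tested.

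**Figure D1:**
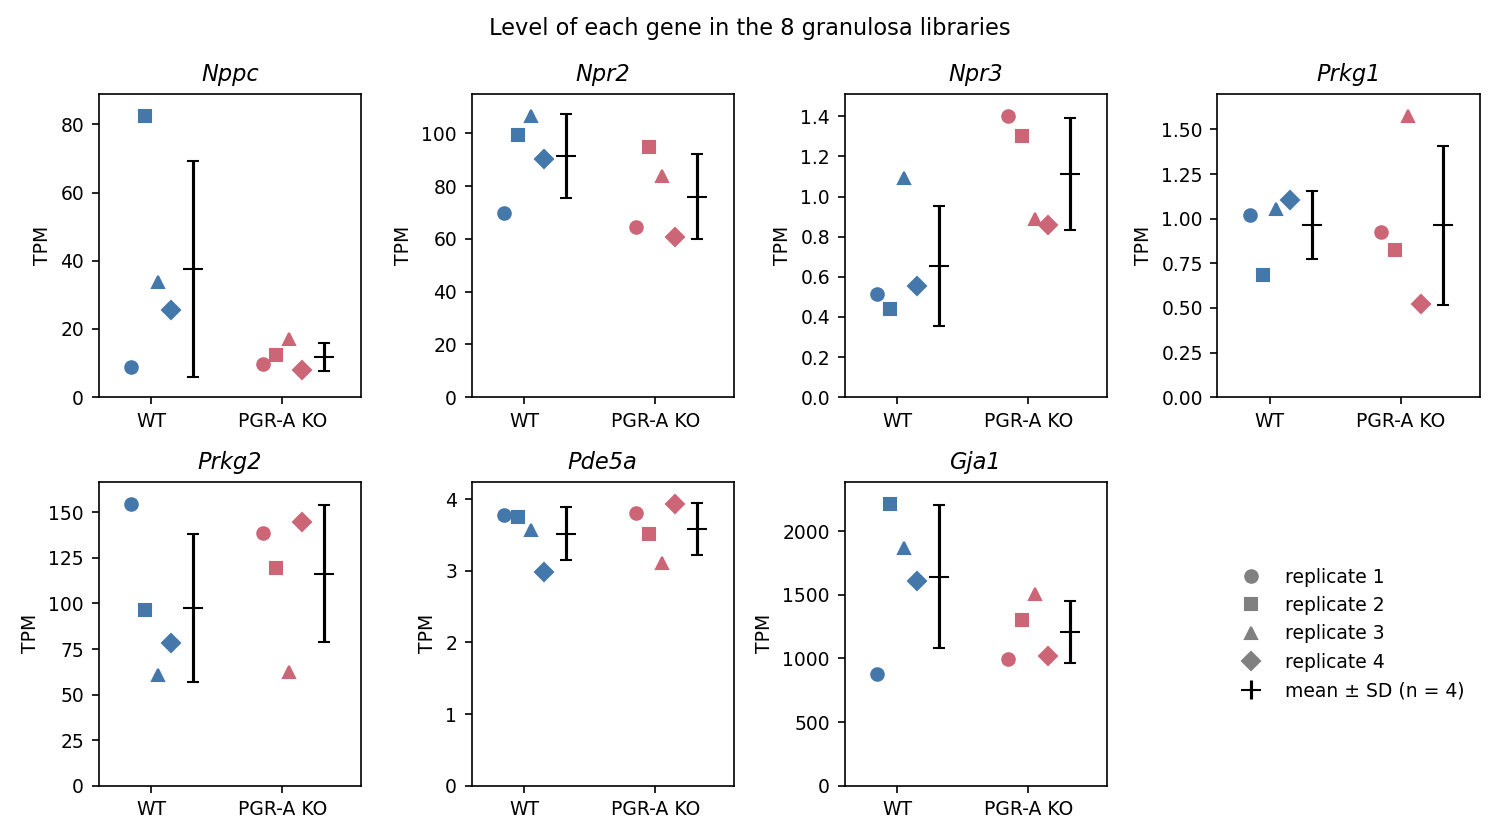
TPM of the 7 genes in each library (vertical axes from 0, one panel per gene), with WT in blue, PGR-A KO in red, the symbol giving the replicate number and the bar the mean ± SD of 4 libraries. Nppc and Gja1 spread widely among WT libraries, from 8.83 to 82.5 TPM and from 881 to 2209 TPM, and the groups overlap in every panel.

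The ligand gene Nppc had the largest log2 change of the 6 tested genes and also the largest spread within groups on the log2 scale. Nppc (ENSMUSG00000026241.5, chromosome 1, 86666291 to 86670571, minus strand, GENCODE M21 on mm10) stood at 9.62, 12.3, 17.2 and 8.06 TPM in PGR-A KO replicates 1 to 4. In WT replicates 1 to 4 it stood at 8.83, 82.5, 33.8 and 25.5 TPM. So 3 WT libraries were above every PGR-A KO library, but WT replicate 1 was below 3 of the 4 PGR-A KO libraries, and the highest library exceeded the lowest 10.2-fold.

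Nppc averaged 11.8 ± 4.00 TPM in the 4 PGR-A KO libraries and 37.6 ± 31.6 TPM in the 4 WT libraries (mean ± SD, n = 4 each). The ratio of means was 3.19 between WT and PGR-A KO. The log2 change was -1.26 (SE 0.55), with a 95% interval of -2.49 to -0.02. This did not pass over all genes tested (limma adjusted p = 0.783, unadjusted p = 0.047), and the exact 2-sided permutation p was 0.114, where 4 against 4 libraries can reach 0.0286 at the lowest. The unadjusted limma p was 0.0571 after TMM scaling, 0.0559 after quantile normalization and 0.0667 in the unfiltered table. Within groups Nppc varied more than 99.2% of the genes tested (SD 0.95 on the log2 scale). Without WT replicate 2 the log2 change was -0.76, and without WT replicate 1 it was -1.78.

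Among receptors, Npr2 was abundant and Npr3 nearly absent. Npr2, the receptor cyclase that CNP activates (ENSMUSG00000028469.15, chromosome 4, 43631935 to 43651244, plus strand), stood at 64.5, 94.9, 83.8 and 60.7 TPM in PGR-A KO. In WT it stood at 69.8, 99.6, 107 and 90.3 TPM. The lowest 3 libraries were WT replicate 1 and PGR-A KO replicates 1 and 4, and the whole range spanned only 1.76-fold. Npr2 averaged 76.0 ± 16.1 TPM in the 4 PGR-A KO libraries and 91.6 ± 16.0 TPM in the 4 WT libraries (mean ± SD, n = 4 each). Its log2 change was -0.27 (SE 0.17, 95% interval -0.66 to 0.11, limma adjusted p = 0.826, exact permutation p = 0.2).

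Npr3 encodes the clearance receptor, which binds natriuretic peptides and removes them without a cyclase. Npr3 (ENSMUSG00000022206.7, chromosome 15, 11839896 to 11907287, minus strand) stood at 1.40, 1.30, 0.889 and 0.858 TPM in PGR-A KO. In WT it stood at 0.516, 0.441, 1.09 and 0.555 TPM. Only 3 libraries reached 1 TPM, and WT replicate 3 lay above 2 of the PGR-A KO libraries. The difference in mean log2 level was 0.36 higher in PGR-A KO, with an exact permutation p of 0.0857. Without the filter limma gave an adjusted p of 0.866 for Npr3 (unadjusted p = 0.0458).

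Set side by side within a library, the receptor transcript exceeded that of its ligand everywhere. Npr2 was 4.88 to 7.73 times the level of Nppc in PGR-A KO and 1.21 to 7.91 times in WT, both extremes belonging to WT replicates 2 and 1. Npr2 exceeded Npr3 between 46.0-fold and 226-fold over all 8 libraries, from 46.0 to 94.2 in PGR-A KO and from 97.5 to 226 in WT. Groups did not overlap in this ratio, which was singled out after its values were seen. It rests on Npr3 levels near 1 TPM and is given as a description only.

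The kinases that respond to cyclic GMP were represented almost entirely by Prkg2. Prkg2, which encodes the membrane-bound type II kinase (ENSMUSG00000029334.14, chromosome 5, 98929773 to 99037351, minus strand), stood at 138, 120, 62.4 and 145 TPM in PGR-A KO. In WT it stood at 154, 96.2, 60.7 and 78.6 TPM. The highest library of all was WT replicate 1, and PGR-A KO replicate 3 was the second lowest, so both groups covered nearly the same range.

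Prkg2 averaged 116 ± 37.5 TPM in the 4 PGR-A KO libraries and 97.4 ± 40.6 TPM in the 4 WT libraries (mean ± SD, n = 4 each). Its log2 change was 0.27 (SE 0.32, 95% interval -0.47 to 1.00, limma adjusted p = 0.92, exact permutation p = 0.543). The interval covers lower and higher levels in PGR-A KO, so no difference in Prkg2 was resolved.

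Prkg1, the soluble type I kinase best known from smooth muscle and platelets (ENSMUSG00000052920.15, chromosome 19, 30564489 to 31765033, minus strand), stood at 0.928, 0.822, 1.58 and 0.523 TPM in PGR-A KO. In WT it stood at 1.02, 0.683, 1.05 and 1.11 TPM. Prkg1 passed the filter with exactly 4 libraries at 1 TPM or more. Its log2 change was -0.02 (SE 0.17, 95% interval -0.41 to 0.36, limma adjusted p = 0.987), and the sign of this small value turned with quantile normalization, without PGR-A KO replicate 2 and without PGR-A KO replicate 4. Prkg2 exceeded Prkg1 between 39.6-fold and 277-fold in the 8 libraries. Summed smooth muscle and pericyte markers, 8 genes led by Acta2, were 79.8 to 109 TPM in PGR-A KO and 80.2 to 121 TPM in WT, with none of the 8 listed at 0 throughout. Their part in the Prkg1 level was not tested, and in bulk samples fewer cells of a type and less RNA per cell cannot be told apart.

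Pde5a encodes a phosphodiesterase that hydrolyses cyclic GMP in the somatic cells of the follicle, and it was the steadiest of the 7 genes. Pde5a (ENSMUSG00000053965.10, chromosome 3, 122728947 to 122859374, plus strand) stood at 3.81, 3.51, 3.11 and 3.93 TPM in PGR-A KO. In WT it stood at 3.77, 3.75, 3.58 and 2.98 TPM. The 8 libraries spanned 1.32-fold, and the log2 change was 0.02 (SE 0.11, 95% interval -0.22 to 0.26, limma adjusted p = 0.977). Its sign turned without PGR-A KO replicate 1, without PGR-A KO replicate 4 and without WT replicate 4.

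Gja1, which encodes connexin 43, the main gap junction protein of granulosa cells, was the most abundant of the 7. Gja1 (ENSMUSG00000050953.10, chromosome 10, 56377330 to 56402513, plus strand) stood at 997, 1302, 1507 and 1019 TPM in PGR-A KO. In WT it stood at 881, 2209, 1866 and 1610 TPM. As with Nppc, 3 WT libraries were above every PGR-A KO library, and WT replicate 1 was here the lowest of all 8.

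Gja1 averaged 1206 ± 244 TPM in the 4 PGR-A KO libraries and 1642 ± 564 TPM in the 4 WT libraries (mean ± SD, n = 4 each), more than 99.5% of the genes tested. Its log2 change was -0.39 (SE 0.27, 95% interval -0.995 to 0.219, limma adjusted p = 0.845, exact permutation p = 0.286). Without WT replicate 2 the value was -0.22, and without WT replicate 1 it was -0.66. Among 20 connexin genes, Gja1 made up 96.6% to 96.8% of the summed TPM in PGR-A KO and 96.3% to 98.6% in WT.

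Ordered by mean level over the 8 libraries, the 7 genes ran from Gja1 at 1424 TPM through Prkg2 (107 TPM), Npr2 (83.8 TPM), Nppc (24.7 TPM), Pde5a (3.56 TPM) and Prkg1 (0.964 TPM) to Npr3 (0.882 TPM). Gja1 exceeded Prkg2, Npr2 exceeded Nppc, Nppc exceeded Pde5a and Pde5a exceeded Prkg1 in 8 of 8 libraries. Prkg2 exceeded Npr2 in 4 of 8 libraries and Prkg1 exceeded Npr3 in 4 of 8, so these neighbours were not separated.

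**Figure D2:**
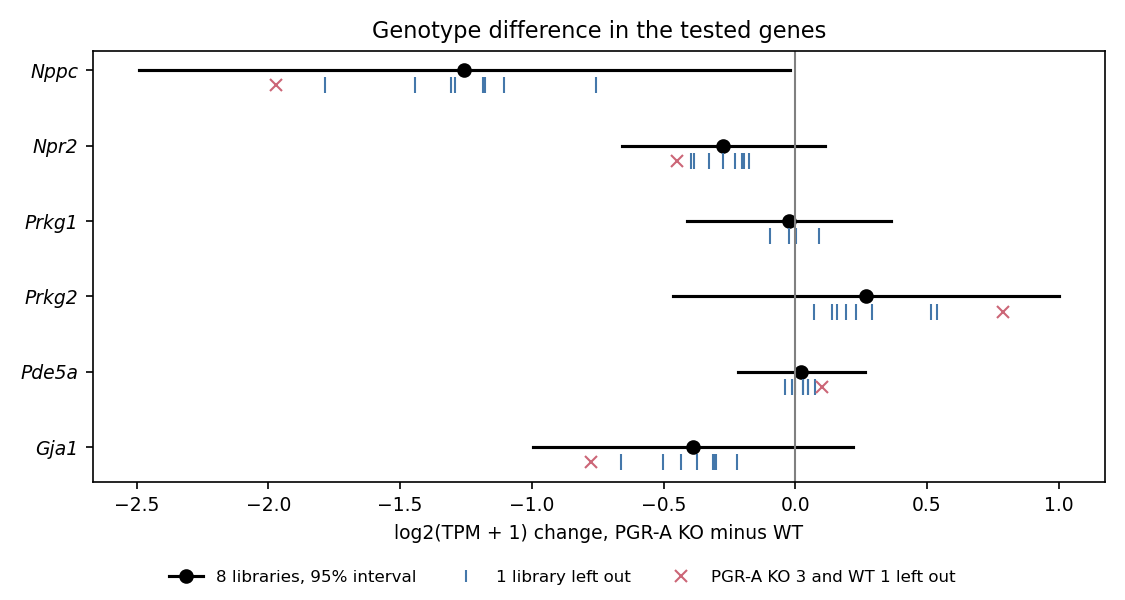
Log2(TPM + 1) change, PGR-A KO minus WT, of the 6 tested genes (horizontal axis, one row per gene), where black points and lines are limma estimates and 95% intervals over 8 libraries, blue ticks leave out 1 library and red crosses leave out WT replicate 1 and PGR-A KO replicate 3 together. Nppc runs from -1.78 to -0.76 with 1 library left out, and Pde5a and Prkg1 stay close to 0. Prkg1 has ticks only for fits where it passed the filter, and no cross.

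The spread among libraries followed a shared order. The 4 libraries lowest in Nppc were PGR-A KO replicate 4, WT replicate 1 and PGR-A KO replicates 1 and 2, and these were also the 4 lowest in Gja1. The same 4 libraries were the highest in Prkg2 and the highest in the summed ovulatory response genes. Within a library, Prkg2 was 14.4, 9.74, 3.63 and 18.0 times the level of Nppc in PGR-A KO and 17.5, 1.17, 1.79 and 3.09 times in WT. The ratio was thus 9.74 or more in those 4 libraries and 3.63 or less in the other 4, with both genotypes on each side. These orders were noted in the values and carry no test.

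WT replicate 2 stood apart in Nppc (82.5 TPM) and Gja1 (2209 TPM), but not in Prkg2 (96.2 TPM). That library also had the lowest summed oocyte markers (400 TPM) and the highest summed granulosa markers (7256 TPM, against 4442 to 6366 TPM in the others). Most of the granulosa sum was Inha, at 4645 TPM in WT replicate 2. The granulosa marker Amh was lowest in WT replicate 2, at 147 TPM, so this sum does not stand for all 9 granulosa markers. Summed theca markers were 251 TPM in that library and 87.4 to 120 TPM in the others. Most of the 251 TPM was Aldh1a1, at 212 TPM there and 58.0 to 82.2 TPM in the others. Of the 6 theca markers, 1 was higher in PGR-A KO without overlap of the groups. In that library this marker was thus below every PGR-A KO library, and the sum does not stand for all 6. Summed endothelial markers were also highest there (45.5 TPM). Inhba, the activin beta A subunit gene of the granulosa marker list, stood at 611 TPM in WT replicate 2 and between 101 and 310 TPM elsewhere. The part of cell makeup in the Nppc and Gja1 levels was not tested.

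**Figure D3:**
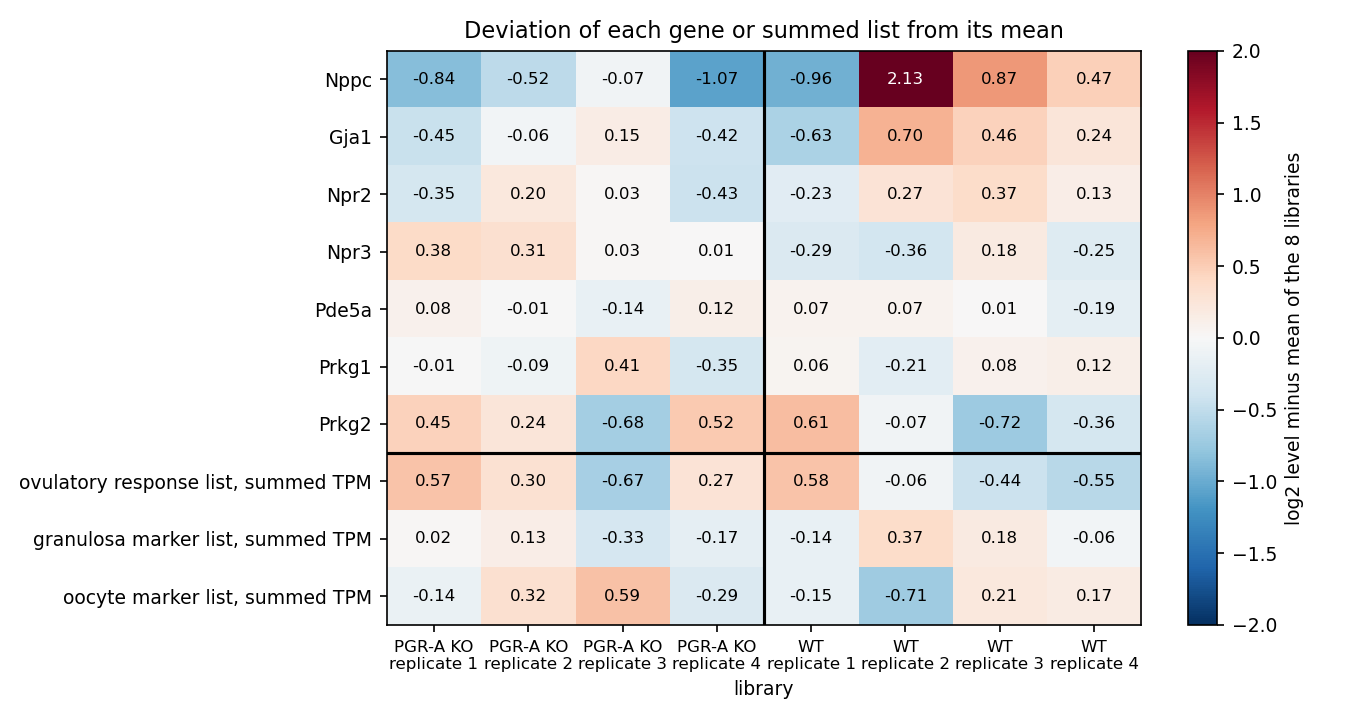
Deviation of each gene from its own mean over the 8 libraries, in log2(TPM + 1) for the 7 genes and in log2 of summed TPM for 3 marker lists below the line (columns are libraries, colour and printed value give the deviation). Nppc and Gja1 are below their means in PGR-A KO replicates 1, 2 and 4 and in WT replicate 1. Prkg2 and the ovulatory response list are above theirs in these libraries. In PGR-A KO replicate 3 Nppc is also below its mean (-0.07), and Gja1 is above its own (0.15).

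Without WT replicate 1 and PGR-A KO replicate 3 together, 3 of the 5 tested genes passed over all genes, in a fit where 8.01% of all genes (1131 of 14114) did. Nppc changed by -1.97 (limma adjusted p = 0.0262), Gja1 by -0.78 (adjusted p = 0.023) and Prkg2 by 0.79 (adjusted p = 0.0288) on the log2 scale. The choice of these 2 libraries rested on their ovulatory gene levels, so the changes largely restate the order of the other libraries and do not measure an effect of genotype. Npr2 (-0.45, adjusted p = 0.136) and Pde5a (0.10, adjusted p = 0.645) did not pass there, and Prkg1 fell under the filter.

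For each tested gene the closest profiles were sought among 10260 genes of at least 5 TPM, by the root mean square difference of log2 deviations over the 8 libraries. Nppc was most like Psd, with a difference of 0.24, and Mro, with 0.30, where the median gene differed by 1.05. Psd stood at 27.4 TPM and Mro at 213 TPM in WT replicate 2, and at 9.64 TPM and 46.6 TPM or less in the other libraries. Gja1 was most like Fam13a (0.058) and Tex15 (0.062), Npr2 most like Art4 (0.060) and Pick1 (0.066), and Pde5a most like Umad1 (0.029) and Washc4 (0.037). Prkg1 was most like Tnfaip8 (0.054) and Lrr1 (0.085). The closest gene to Prkg2 was Snap25 (0.11), a membrane fusion protein gene also known to depend on the progesterone receptor in granulosa cells, followed by Tmem71 (0.12). All these are descriptions of 8 libraries, which share the order given above.

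Beyond the 7 genes, 99 others of the pathway were listed in 8 groups, of which 59 passed the filter and none passed the adjusted threshold (lowest limma adjusted p = 0.636). At an unadjusted p under 0.05 there were 3, all lower in PGR-A KO, which is 5.08% of the 59 beside 6.31% of all genes. This count depended on the scaling, at 5 of 59 with TMM (882 of 14472 genes overall) and 7 of 59 with quantile normalization (910 of 14472). The median log2 change over the 59 was -0.0018, beside -0.023 over all genes tested. Without WT replicate 1 and PGR-A KO replicate 3 together 5 of 55 tested genes passed (Npr1, Pde4d, Prkca, Gjc3 and Adcy9), near the 8.01% of all genes in that fit. As above, these libraries were picked by their values, and this does not measure an effect of genotype.

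Among other natriuretic peptide genes the ligands of the heart were absent, Nppa being listed at 0 in all 8 libraries and Nppb at no more than 0.0434 TPM. Npr1, the cyclase receptor for those ligands, stood at 49.8, 53.7, 22.8 and 43.8 TPM in PGR-A KO and at 44.0, 24.3, 25.3 and 22.4 TPM in WT. Its 4 highest libraries were the 4 that were highest in Prkg2. The difference in Npr1 between genotypes was 0.52 on the log2 scale (limma adjusted p = 0.8). Ece1, a metalloprotease gene and the most abundant of this group, had the lowest p in it, with 415 ± 63.6 TPM in the 4 PGR-A KO libraries and 550 ± 49.2 TPM in the 4 WT libraries (mean ± SD, n = 4 each) (limma adjusted p = 0.636, unadjusted p = 0.00497).

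The soluble guanylyl cyclase that nitric oxide activates was present at lower levels than Npr2. Its subunit genes Gucy1a1 and Gucy1b1 together reached 0.121 to 0.181 times the Npr2 level. Means in PGR-A KO were above WT for 2 and below for 5 of 7 tested cyclase and nitric oxide genes, all 7 within 0.12 of no change, and the count became 7 higher with quantile normalization. Nosip was the most abundant and Gucy1b1 had the lowest p (0.476, limma, unadjusted).

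All 8 tested genes of other phosphodiesterases that act on or are linked to cyclic GMP had higher means in PGR-A KO, beside 42.6% of all genes tested, and none passed. All 8 oocyte markers (median log2 change 0.23) and all 10 ovulatory response genes (0.36) also had higher means in PGR-A KO, and their part in the phosphodiesterase levels was not tested. The median log2 change of the phosphodiesterase genes was 0.16, and it was 0.18 with TMM factors and 0.19 with quantile normalization. Pde6d, the most abundant and the one with the lowest p, had 64.8 ± 4.56 TPM in the 4 PGR-A KO libraries and 57.8 ± 5.91 TPM in the 4 WT libraries (mean ± SD, n = 4 each) (limma adjusted p = 0.796). Its listing here does not mean that Pde6d breaks down cyclic GMP. Pde1a was the next most abundant, with 44.1 ± 7.91 TPM in PGR-A KO and 40.5 ± 6.69 TPM in WT (limma adjusted p = 0.929). Pde3a, which encodes the oocyte enzyme that cyclic GMP inhibits, stood at 2.58, 3.02, 4.17 and 2.13 TPM in PGR-A KO and at 2.17, 1.75, 3.07 and 2.87 TPM in WT. Summed oocyte markers were highest in PGR-A KO replicate 3 (985 TPM) and lowest in WT replicate 2 (400 TPM), the same libraries as for Pde3a, and their part in its level was not tested.

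Genes for cyclic GMP precursors and export were nearly level, 2 of 6 with higher and 4 with lower means in PGR-A KO. Impdh2, an enzyme of guanine nucleotide synthesis, was the most abundant, and Abcc5, an exporter of cyclic nucleotides, had the lowest p (0.235, limma, unadjusted). Of 9 tested kinase substrates and effectors, 2 had higher and 7 lower means, with a median log2 change of -0.17. Rgs2, a regulator of G protein signalling and a known substrate of these kinases, led that group with 627 ± 54.5 TPM in the 4 PGR-A KO libraries and 761 ± 128 TPM in the 4 WT libraries (mean ± SD, n = 4 each) (limma adjusted p = 0.783).

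Of 22 other connexin and pannexin genes, 5 passed the filter, 3 with higher and 2 with lower means in PGR-A KO. Panx1 was the most abundant, and Gja4, which encodes the connexin on the oocyte side of the junction, stood at 21.4, 28.5, 34.1 and 21.1 TPM in PGR-A KO and at 20.2, 16.5, 27.7 and 28.3 TPM in WT. Gja4, like the oocyte markers, was highest in PGR-A KO replicate 3 and lowest in WT replicate 2. Gjc3 had the lowest p of the group at 0.55 to 1.79 TPM in PGR-A KO and 1.02 to 3.37 TPM in WT (log2 change -0.67, limma adjusted p = 0.783). Of 11 connexin partners, 5 had higher and 6 lower means, and Nedd4, a ubiquitin ligase gene, was the most abundant.

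Around oocyte cyclic AMP and meiotic arrest, 7 genes were tested, 4 with means above WT and 3 below. Gnas was the most abundant at 851 ± 83.8 TPM in the 4 PGR-A KO libraries and 837 ± 96.5 TPM in the 4 WT libraries (mean ± SD, n = 4 each). Adcy9, an adenylyl cyclase gene, was the one gene of the 99 whose groups did not overlap, beside 2.82% of all genes that did not overlap and were lower. Adcy9 stood at 12.3, 15.5, 15.7 and 13.3 TPM in PGR-A KO and at 16.8, 22.7, 21.7 and 18.2 TPM in WT. The log2 change of Adcy9 was -0.45 (SE 0.12, limma adjusted p = 0.636), and the exact permutation test gave p = 0.0286, its lower limit for 4 against 4.

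**Figure D4:**
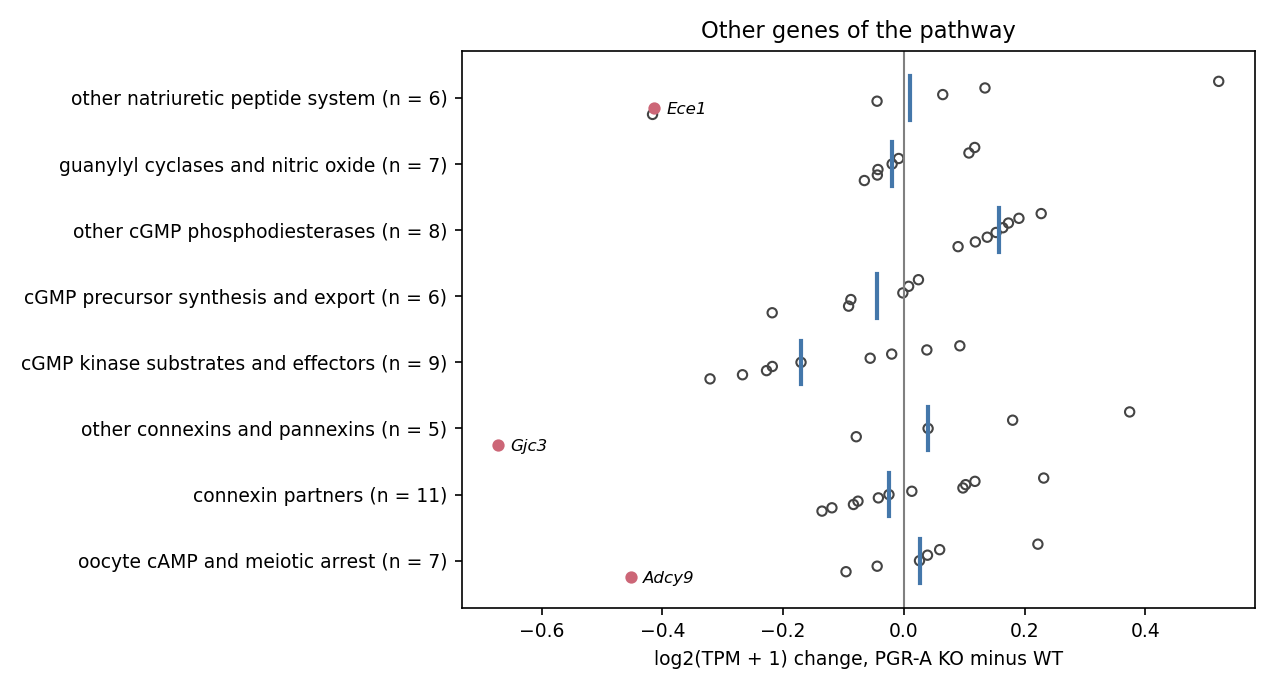
Log2(TPM + 1) change, PGR-A KO minus WT, of the 59 tested genes in 8 groups (horizontal axis), with each circle a gene, filled red where the unadjusted limma p is under 0.05, and the blue bar the group's median. Ece1, Gjc3 and Adcy9 are the filled genes, all lower in PGR-A KO, and the 8 phosphodiesterase genes lie to the right of 0.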

How the data were processed

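Polyadenylated RNA of peri-ovulatory granulosa cells was sequenced from 4 PGR-A KO and 4 WT pools. The deposited values are TPM, made by the authors. FastQC, Salmon, edgeR, limma and mm10 are named per the submitters' processing notes, without versions. For the annotation and the summing of transcripts to genes, the tools and versions were not given in the sources used here. Depth is unknown, so no counting error can be given, and 4 libraries a group limit the precision.

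Genes that reached 1 TPM in 4 or more libraries were tested with limma 3.58.1 in R 4.3.3 on log2(TPM + 1), with an intensity trend, no covariate and Benjamini-Hochberg adjustment at 0.05. Fold changes on this scale understate those of low genes. Single values also had an exact 2-sided permutation test over 70 assignments. The code was tested on simulated data. Positions are from GENCODE M21 (mm10), matched by symbol.

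The 7 members and the other lists were chosen with earlier results of these data known. Named genes were the members, Pgr, the most abundant gene of each marker list, and in each pathway list the most abundant tested gene and that with the lowest p. For the connexin partners the latter is not reported here. The 2 closest profiles of each member were also named. Npr1, Pde1a, Pde3a, Gja4, Inhba, the Gucy1a1 and Gucy1b1 sum and the genes called in 6 libraries were added after their values were seen. Alternatives varied the pseudocount, filter, scaling, limma options, replicate block and the libraries included. Dropping both WT replicate 1 and PGR-A KO replicate 3 was chosen after seeing the data.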

Additional observations from a re-analysis of the deposited data

How the results depend on the processing

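None of 17 alternatives (pseudocount, filter, scaling, limma options, replicate block, 1 library left out) called any of the 7 genes or of the wider pathway. Over all genes the 2 calls became 3 at pseudocount 0.1, 1 at pseudocount 5 and 0 to 6 with 1 library left out. With both WT replicate 1 and PGR-A KO replicate 3 dropped, an alternative chosen after seeing the data, 1131 of 14114 genes (8.01%) were called. Of the 7 genes 5 were tested there, Npr3 and Prkg1 falling under the filter. The calls held 3 of these 5, Nppc at -1.97, Prkg2 at 0.79 and Gja1 at -0.78 on the log2 scale. They also held 5 of the 55 tested genes of the wider pathway. Both libraries were left out for their ovulatory gene levels, and such calls are no measure of a genotype effect. Npr3 moved to 0.73 with a pseudocount of 0.1 and to 0.11 with 5, as low levels do on this scale. Prkg1 turned to 0.016 with quantile normalization, and the cause was not tested. With 1 library left out, log2 changes ran from -1.78 to -0.76 for Nppc, -0.40 to -0.17 for Npr2, 0.30 to 0.48 for Npr3, -0.097 to 0.089 for Prkg1, 0.071 to 0.54 for Prkg2, -0.038 to 0.074 for Pde5a and -0.66 to -0.22 for Gja1. A filter of 5 TPM removed Npr3, Prkg1 and Pde5a.

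Whether replicate numbers pair the libraries was not settled. Same-numbered libraries correlated at 0.36, -0.11, 0.39 and -0.29 in their deviations, and 1 of 4 PGR-A KO libraries correlated best with its own number. With the replicate block limma still called 2 genes over the table and none of the 7. Genes at an unadjusted p under 0.05 went from 913 to 1368, and among the 7 from 1 to 3. Nppc had a limma adjusted p of 0.402 with the block. The limma unadjusted p with the block was 0.0272 for Npr2 and 0.0418 for Gja1, against 0.144 and 0.183 without it. Their adjusted p with the block was 0.459 and 0.511.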
